A study of Mus musculus with 8 samples.

Results

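Transcripts of 10 noncoding genes that carry small nucleolar RNAs (snoRNAs) in their introns were followed in primary mouse calvarial osteoblasts given parathyroid hormone (PTH) or vehicle for 24 hours. The genes were Gas5, Snhg1, Snhg3, Snhg4, Snhg5, Snhg6, Snhg8, Snhg12, Snhg15 and Snhg18, 10 of the 47706 genes in the deposited count table, of which 16736 had enough counts to be tested. They were chosen by symbol, and 9 were listed under that symbol and Snhg15 under its older one, Gm11974. All 10 passed the filter on low counts. Cells isolated from the skull bone of newborn mice had been cultured for 7 days before treatment, and both groups held 4 libraries of poly(A) RNA. The sample labels call the culture adipogenic, the study's methods describe osteogenic medium and serum starvation before PTH, and the sample titles mark every library "Con" without a stated genotype. Neither source says whether the 4 libraries of a group came from separate cultures or animals, so the p-values measure only the spread between these libraries, which may be technical.

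Host gene transcripts are spliced like messenger RNAs, and the snoRNAs are trimmed out of the excised introns. The snoRNAs then guide chemical modification of ribosomal RNA, box C/D snoRNAs with the methyltransferase fibrillarin and box H/ACA snoRNAs with the pseudouridine synthase dyskerin. The spliced exons of many noncoding hosts are degraded in the cytoplasm by nonsense-mediated decay, and many hosts start transcription at a run of pyrimidines, the 5′ terminal oligopyrimidine (TOP) tract shared with ribosomal protein genes. Gas5, first isolated as a transcript that accumulates in growth-arrested cells, has both features.

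To show what these genes carry, a snoRNA of each class is given here as annotated in GENCODE M21 on GRCm38. Snord47 lies in an intron of Gas5 at chr1:161038082-161038158 on the plus strand, and capitals mark its C box and D box. Snora24 lies in an intron of Snhg8 at chr3:123507937-123508066 on the minus strand, and capitals mark its ACA box near the 3′ end.
Snord47: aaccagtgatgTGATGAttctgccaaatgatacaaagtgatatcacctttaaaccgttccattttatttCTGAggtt
Snora24: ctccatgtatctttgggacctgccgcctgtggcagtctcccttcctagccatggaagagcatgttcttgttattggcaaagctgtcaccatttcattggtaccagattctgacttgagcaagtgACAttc
The span of Gas5 held 9 annotated snoRNA names and that of Snhg1 held 8. Snhg12 held 4, Snhg3, Snhg4 and Snhg5 held 2 each, and Snhg6, Snhg8, Snhg15 and Snhg18 held 1 each.

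Start sites are shown next because the TOP tract is the sequence feature best known for this class. The windows of 30 bases are from RefSeq on GRCm38.p6, begin 10 bases before the annotated start and read along the gene's own strand. Capitals mark a run of at least 5 pyrimidines that opens with C within 10 bases of the start.
Gas5: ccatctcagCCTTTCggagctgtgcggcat
Snhg3: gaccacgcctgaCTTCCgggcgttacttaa
Snhg5: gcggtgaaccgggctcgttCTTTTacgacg
Snhg8: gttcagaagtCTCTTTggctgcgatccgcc
Snhg12: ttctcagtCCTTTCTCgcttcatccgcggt
Snhg18: cccaggCCCCTCCTCTagccccgcctcttc
Snhg15: ctgtgaccgtaactttaagcacacgtgagc
These windows lie at chr1:161035156-161035185 for Gas5, chr4:132353667-132353696 for Snhg3 and chr9:88522878-88522907 for Snhg5. Those of Snhg8 and Snhg12 lie at chr3:123508317-123508346 and chr4:132308668-132308697, and those of Snhg18 and Snhg15 at chr15:32244643-32244672 and chr11:6528741-6528770. Such a run was present for 6 of the 8 host genes searched (75%), against 34.4% of the 27025 genes searched in the promoter table. No run met the rule at the starts of Snhg1 and Snhg15, nor at a second annotated start of Gas5. Snhg6 and Snhg4 were not searched.

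The cAMP response element, TGACGTCA, was looked for on both strands from 250 bases before to 50 bases after each start, because the PTH receptor signals through cAMP. It occurred in 2 of the 9 windows of these genes (22.2%), those of Gas5 and Snhg15, and in 1.79% of the 32851 windows searched. Capitals mark the element at chr1:161035104-161035143 for Gas5 and at chr11:6528825-6528864 for Snhg15.
Gas5: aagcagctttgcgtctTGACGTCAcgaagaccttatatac
Snhg15: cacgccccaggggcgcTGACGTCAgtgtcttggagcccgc
The E-box CACGTG, a site of Myc-family factors, occurred in 1 of the 9 windows (11.1%), that of Snhg15, against 7.15% of all windows searched. These matches describe letters in a window and not binding.

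Total counts ran from 33605610 to 56090654 in the PTH libraries and from 41618108 to 46757836 in the vehicle libraries. Levels are given as CPM, a gene's count relative to the total count of its library after scaling by TMM, a normalization that assumes most genes are unchanged. Tnfsf11, which encodes RANKL and is a classical PTH target, rose from 1.41 ± 0.364 to 127 ± 20.0 CPM (SD, n = 4), so the labels matched the libraries. Markers of osteoblasts were abundant, with list medians of 210 to 370 CPM in vehicle and 242 to 384 CPM in PTH libraries, and 3 of 9 fell and 0 rose by edgeR, DESeq2 or an unadjusted p under 0.05. Macrophage markers were also present, with a summed level of 345 to 601 CPM in vehicle and 508 to 579 CPM in PTH libraries, and 0 of 10 were called by edgeR or DESeq2, with 3 higher at an unadjusted p under 0.05. Adipocyte marker medians were 5.94 to 8.16 CPM in vehicle and 4.95 to 6.31 CPM in PTH libraries, and of 6 tested 1 fell and none rose by edgeR, with 1 higher by DESeq2. Of 4 endothelial markers tested 1 rose and 1 fell, and Emcn had 0 counts in every library. The part of other cell types in the host gene results was not tested. In such bulk libraries, fewer cells of a type and less RNA per cell cannot be told apart.

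PTH raised 6 of the 10 host transcripts: Snhg15, Snhg6, Snhg1, Snhg8, Snhg12 and Gas5. None fell, also by DESeq2 or at an unadjusted p under 0.05 in edgeR, and the other 4, Snhg3, Snhg5, Snhg4 and Snhg18, did not pass the test. A call required an adjusted p under 0.05 from edgeR's quasi-likelihood test over all tested genes. By the same rule 23.3% of all tested genes were higher and 22.5% lower with PTH, 45.8% in all. The fitted log2 fold change was above 0 for all 10 hosts, as it was for 49.9% of tested genes, and ran from 0.20 to 1.45. Its median was 0.70, against -0.00081 over all tested genes. At least a doubling, a log2 fold change of 1, accompanied the call for 4 hosts, compared with 7.36% of all genes. With an offset for transcript length, a combination chosen after seeing the data, this held for 2 hosts, Snhg1 and Snhg15, compared with 7.22% of all genes. The offset took the longest annotated transcript as the length, which for Snhg1 was 2728 bases, against 605 bases for its transcript with the most exons. The result for Snhg1 may depend on that choice, which was not tested. Summed over the 10 genes, the level was 199 ± 14.3 CPM in vehicle and 323 ± 95.7 CPM in PTH libraries (SD, n = 4).

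**Figure D1:**
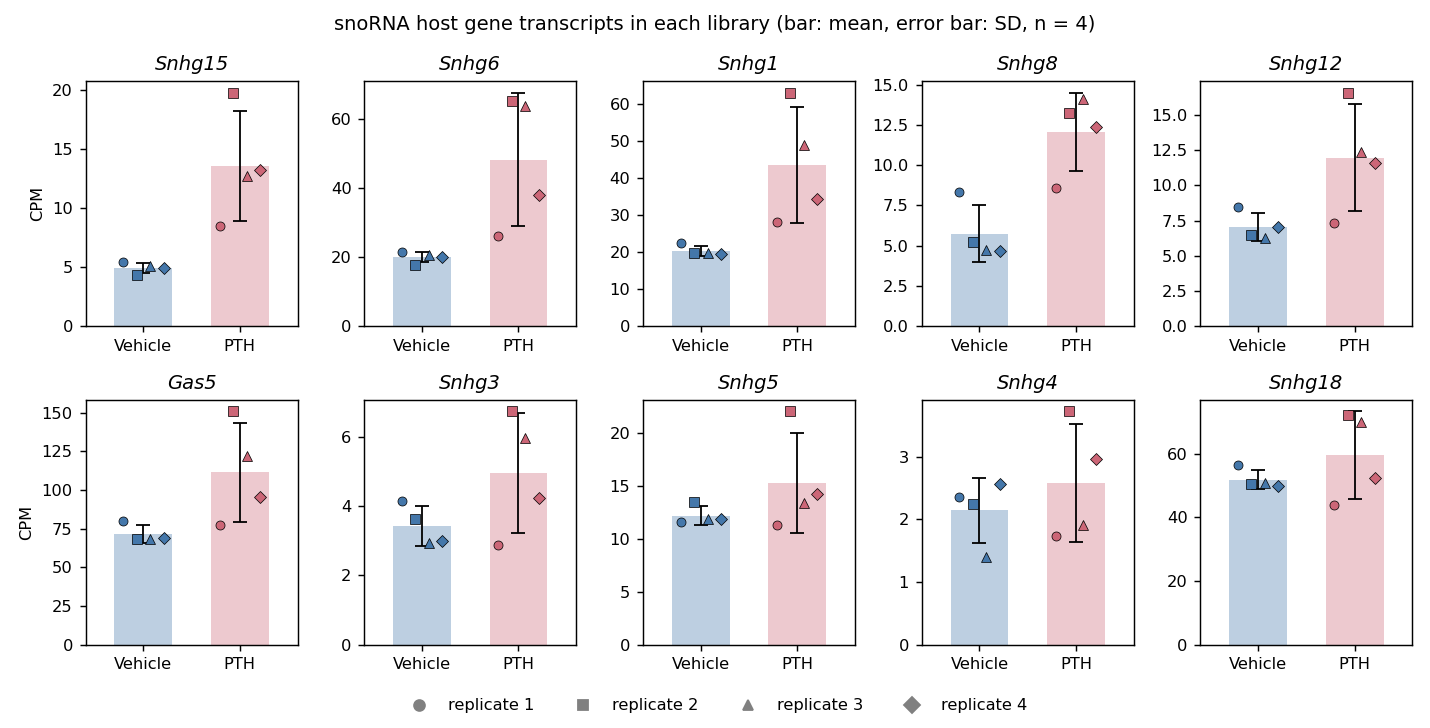
CPM of each host gene (vertical axis) in the vehicle and PTH libraries, with bars for the mean, error bars for the SD of 4 libraries and 1 marker shape per replicate number. All 4 PTH libraries lie above all vehicle libraries for Snhg15, Snhg6, Snhg1 and Snhg8, and PTH replicate 1, the circle, is the lowest PTH library for all 10 genes.

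Every PTH library exceeded every vehicle library for 4 hosts, Snhg15, Snhg6, Snhg1 and Snhg8, as was so for 21.2% of tested genes. None lay below vehicle in this way, against 21.8% of tested genes. For each of these 4 the exact two-sided permutation test of log2(CPM + 0.1) gave p = 0.0286, the smallest that 4 against 4 libraries allow. The groups overlapped for the other 6.

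Among hosts of box C/D snoRNAs, Gas5 was the most abundant of the 10 genes in CPM and made up 35.8% of their summed level in vehicle. Gas5 (ENSMUSG00000053332, chr1:161034422-161038539, plus strand) stood at 79.97, 68.2, 68.0 and 68.8 CPM in vehicle replicates 1 to 4 and at 77.3, 151, 122 and 95.7 CPM in PTH replicates 1 to 4. PTH replicate 1 fell within the vehicle range and the other 3 lay above it. Gas5 rose (log2 fold change 0.64, SE 0.164, adjusted p = 0.00663 by edgeR), while the exact permutation p was 0.0571. The 5′ part of Gas5 overlaps Zbtb37, a zinc finger gene on the opposite strand, which fell (log2 fold change -0.88, adjusted p = 3.33e-04). The strand setting of the counting is not given in the sources used here, so reads of the overlapping stretch cannot be told apart.

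Snhg1 (chr19:8723475-8726443, plus strand), host of Snord22 and further box C/D snoRNAs, was at 22.4, 19.8, 19.9 and 19.3 CPM in vehicle replicates 1 to 4. In PTH replicates 1 to 4 it was at 28.1, 63.1, 49.1 and 34.2 CPM. The lowest PTH library was above the highest vehicle library, and the PTH libraries spanned more than a doubling among themselves. Snhg1 rose (log2 fold change 1.10, SE 0.201, adjusted p = 8.17e-04).

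Snhg6 (chr1:9941959-9944118, minus strand), host of Snord87, was at 21.3, 17.8, 20.5 and 20.1 CPM in vehicle replicates 1 to 4. PTH replicates 1 to 4 gave 26.0, 65.1, 63.6 and 38.0 CPM. PTH replicates 2 and 3 were alike and PTH replicate 1 was closest to vehicle. The log2 fold change was 1.27 (SE 0.237, adjusted p = 8.98e-04). Mcmdc2, which overlaps Snhg6 on the opposite strand, had at most 15 counts in any library and was not tested.

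Snhg5 (chr9:88521050-88522929, minus strand), host of Snord50a and Snord50b, was at 11.6, 13.5, 11.8 and 11.9 CPM in vehicle and at 11.3, 22.1, 13.4 and 14.3 CPM in PTH replicates 1 to 4. Only PTH replicates 2 and 4 exceeded the vehicle range. Its log2 fold change of 0.32 had a 95% interval of -0.06 to 0.69 (adjusted p = 0.152), an interval that includes 0. With the length offset the log2 fold change of Snhg5 was 0.18 (adjusted p = 0.408). Transcripts of 9330159M07Rik and 9430037G07Rik share 233 bases with Snhg5 at 96.1% and 95.7% identity, and reads from those bases could be split between the genes. Neither of these genes passed the test, with log2 fold changes of -0.60 (adjusted p = 0.0652) and -0.47 (adjusted p = 0.218).

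Snhg18 (chr15:32240565-32244662, minus strand), host of Snord123, was at 56.4, 50.5, 50.8 and 49.8 CPM in vehicle and at 43.75, 72.2, 70.1 and 52.4 CPM in PTH replicates 1 to 4. PTH replicate 1 was the lowest of all 8 libraries. Snhg18 had the smallest log2 fold change of the 10 genes, 0.20, with a 95% interval of -0.10 to 0.50 (adjusted p = 0.261).

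Of the hosts of box H/ACA snoRNAs, Snhg15 (chr11:6525591-6528760, minus strand), host of Snora9, showed the largest change of all 10 genes. It was at 5.40, 4.36, 5.07 and 4.92 CPM in vehicle replicates 1 to 4 and at 8.48, 19.8, 12.7 and 13.2 CPM in PTH replicates 1 to 4. The groups did not overlap, and the highest PTH library was replicate 2. Snhg15 rose (log2 fold change 1.45, SE 0.2099, 95% interval 0.99 to 1.91, adjusted p = 1.40e-04).

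Snhg8 (chr3:123507552-123508404, minus strand), host of the Snora24 shown above, was at 8.34, 5.23, 4.73 and 4.63 CPM in vehicle replicates 1 to 4. In PTH replicates 1 to 4 it was at 8.58, 13.2, 14.1 and 12.4 CPM. PTH replicate 1 exceeded vehicle replicate 1 by a narrow margin, and the remaining libraries were well apart. Snhg8 rose (log2 fold change 1.07, SE 0.206, adjusted p = 0.00112).

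Snhg12 (chr4:132308623-132311024, plus strand) carries Snora16a, Snora44 and Snora61 together with the box C/D snoRNA Snord99. It was at 8.47, 6.47, 6.28 and 7.07 CPM in vehicle and at 7.31, 16.6, 12.4 and 11.6 CPM in PTH replicates 1 to 4. PTH replicate 1 lay below vehicle replicate 1, and the other 3 PTH libraries lay above all vehicle libraries. The log2 fold change was 0.75 (SE 0.206, adjusted p = 0.01003), and the exact permutation p was 0.0571.

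Snhg3 (chr4:132348014-132353686, minus strand), host of Snora73a and Snora73b, was at 4.15, 3.63, 2.92 and 2.98 CPM in vehicle and at 2.89, 6.74, 5.97 and 4.23 CPM in PTH replicates 1 to 4. PTH replicate 1 was the lowest of the 8 libraries and the other 3 PTH libraries were above the vehicle range. The log2 fold change was 0.53, with a 95% interval of -0.01 to 1.07 (adjusted p = 0.102). Snhg3 shares an assembled locus and strand with Rcc1, the exchange factor of the GTPase Ran, which fell by 0.29 (log2, adjusted p = 0.0476). It also overlaps Gm17300 on the opposite strand, with 313 identical bases, and that gene rose (log2 fold change 0.75, adjusted p = 0.0367). How the counting divided reads among these genes was not tested. With an offset for transcript length, the log2 fold change of Snhg3 was 0.11 (adjusted p = 0.690).

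Snhg4, annotated by RefSeq at chr18:35553410-35558316, was the least abundant host, with 67 to 127 counts per library. It was at 2.36, 2.25, 1.40 and 2.56 CPM in vehicle and at 1.74, 3.73, 1.90 and 2.97 CPM in PTH replicates 1 to 4, and the groups overlapped. Its log2 fold change of 0.26 had a 95% interval of -0.36 to 0.89 (adjusted p = 0.483), the widest of the 10. Without PTH replicate 2 that log2 fold change was 0.05 (adjusted p = 0.908), and without vehicle replicate 3 it was 0.10 (adjusted p = 0.803). Its entry shares an assembled locus with Matr3, a nuclear matrix protein gene (log2 fold change -0.07, adjusted p = 0.390).

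Levels between genes were compared per kilobase of the annotated transcript with the most exons, for the 9 hosts found in GENCODE M21. In vehicle, Gas5 led at 142 ± 11.6 CPM per kb (SD, n = 4). Snhg6 at 42.1 ± 3.16, Snhg18 at 34.9 ± 2.06 and Snhg1 at 33.6 ± 2.28 CPM per kb followed, and the vehicle ranges of neighbours among these 3 overlapped. The remaining 5, Snhg5, Snhg8, Snhg12, Snhg3 and Snhg15, descended from 15.6 ± 1.13 to 8.34 ± 0.731 CPM per kb, again with overlapping neighbours. With PTH, Gas5 stood at 222 ± 63.8, Snhg6 at 102 ± 40.9 and Snhg1 at 72.1 ± 25.9 CPM per kb, and Snhg15, the lowest in vehicle, was at 22.8 ± 7.87 CPM per kb. The order depends on the transcript chosen: with the longest annotated transcript, Snhg18 at 34.9 CPM per kb exceeded Gas5 at 27.9 CPM per kb in vehicle.

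In the summed level of these genes, the PTH libraries differed from each other more than the vehicle libraries did. Summed CPM of the 10 hosts was 215, 433, 365 and 279 in PTH replicates 1 to 4 and 220, 192, 191 and 192 in vehicle replicates 1 to 4. PTH replicate 1 was thus inside the vehicle range of the sum, and PTH replicates 2 to 4 were above it.

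**Figure D2:**
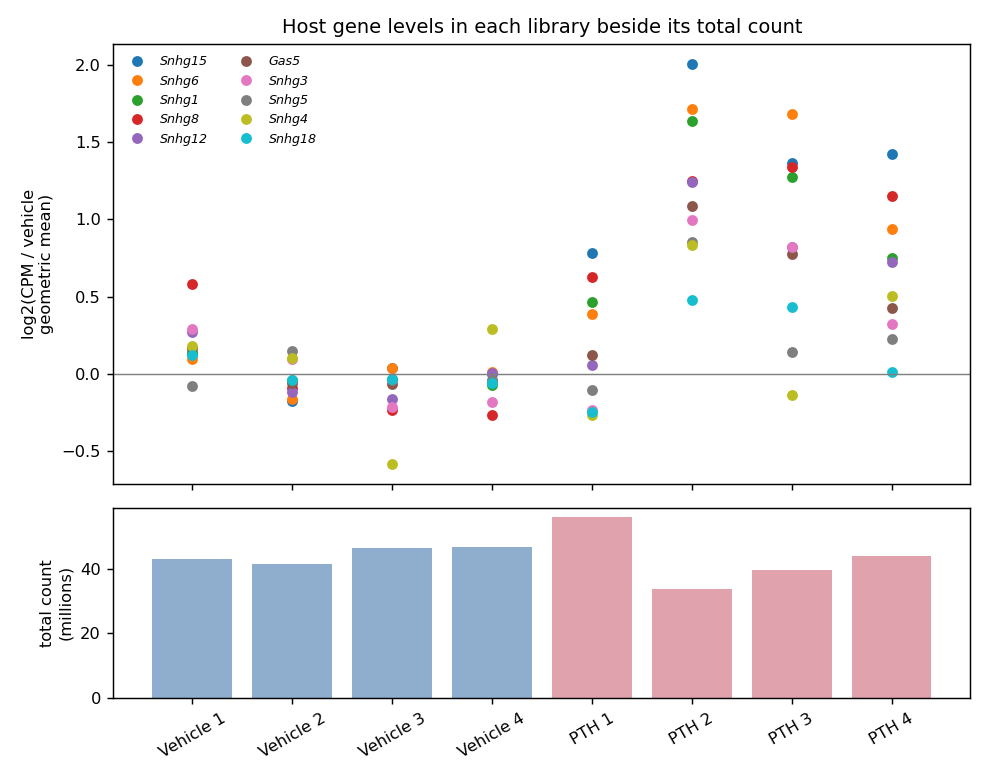
Upper panel, log2 ratio of each host gene's CPM to its geometric mean in the vehicle libraries (vertical axis) for each of the 8 libraries (horizontal axis), with 1 colour per gene. Lower panel, total count of each library, with PTH replicate 1 the largest at 56090654 counts and PTH replicate 2, where most hosts are highest, the smallest at 33605610.

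PTH replicate 1 was the lowest PTH library for 10 of 10 hosts, against 31.2% of all tested genes. PTH replicate 2 was the highest for 9 of 10, against 32.2%. The full order 2, 3, 4, 1 held for 6 of 10 hosts and for 11.4% of all tested genes. It is the inverse order of the total counts, which were 56090654, 33605610, 39559897 and 43965864 in PTH replicates 1 to 4. The part of sequencing depth, or of any other difference between these libraries, in that order was not tested. In PTH replicate 1 Tnfsf11 was at 157 CPM, the highest of the 4.

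Because PTH replicate 1 was the lowest PTH library for all 10 hosts, leaving it out raised each of their log2 fold changes. Without PTH replicate 1, 9 of 10 hosts were called higher. Of all genes then tested 24.1% were called higher, an unlike background, since PTH replicate 1 was the lowest for only 31.2% of tested genes. Snhg3, Snhg5 and Snhg18 joined the 6, with log2 fold changes of 0.72 (adjusted p = 0.0115), 0.44 (adjusted p = 0.0344) and 0.32 (adjusted p = 0.0224). Snhg4 did not pass, at 0.42 (adjusted p = 0.254). Leaving out PTH replicate 2 instead, the highest for 9 of 10 hosts, gave 0.35, 0.10, 0.10 and 0.05 for Snhg3, Snhg5, Snhg18 and Snhg4, and none of these passed. The calls of the other 6 did not depend on a single library: each stayed under an adjusted p of 0.05 in all 8 fits that left 1 library out.

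**Figure D3:**
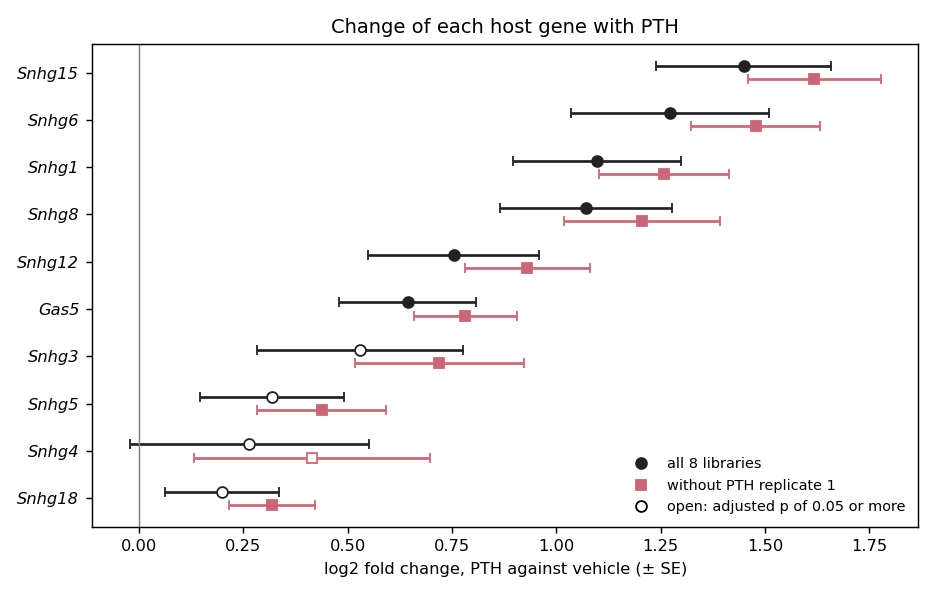
Log2 fold change of each host gene, PTH against vehicle, with its SE (horizontal axis), from all 8 libraries (black circles) and without PTH replicate 1 (red squares). Open symbols did not reach an adjusted p under 0.05, which applies to 4 genes with all libraries and to Snhg4 alone without PTH replicate 1. The library left out is the lowest PTH library for every gene shown, so each red square lies to the right of its circle.

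Other snoRNA hosts and the machinery around them were described by lists, with the 23.3% and 22.5% of all genes called higher and lower as the background. Of 10 further noncoding hosts, 7 were tested, 5 rose and none fell, with a median log2 fold change of 0.97, and DESeq2 called 4 higher and none lower. Snhg16 rose most, from 2.28 ± 0.820 to 7.07 ± 3.46 CPM (log2 fold change 1.63, SE 0.344, adjusted p = 0.00210). Snhg7 and Snhg9 were too low to test and Snhg10 was not matched. In these 7 genes, too, PTH replicate 1 was always the lowest and PTH replicate 2 always the highest PTH library.

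Protein-coding hosts had smaller medians. Of 14 ribosomal protein genes that carry snoRNAs, 12 rose and none fell, with a median log2 fold change of 0.45, and Rps12 rose most (log2 fold change 0.99, adjusted p = 0.00288). In this list PTH replicate 1 was the lowest PTH library for 12 genes, but PTH replicate 2 was the highest for only 2. Of 16 other protein-coding hosts, 10 rose and 1 fell, with a median of 0.34. Nop56, a core protein of box C/D particles and itself a host, rose from 36.4 ± 1.43 to 63.5 ± 9.06 CPM, and Dkc1, the gene of dyskerin, fell (log2 fold change -0.58, SE 0.0832, adjusted p = 1.36e-04). The difference in median between noncoding and protein-coding hosts was not tested.

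**Figure D4:**
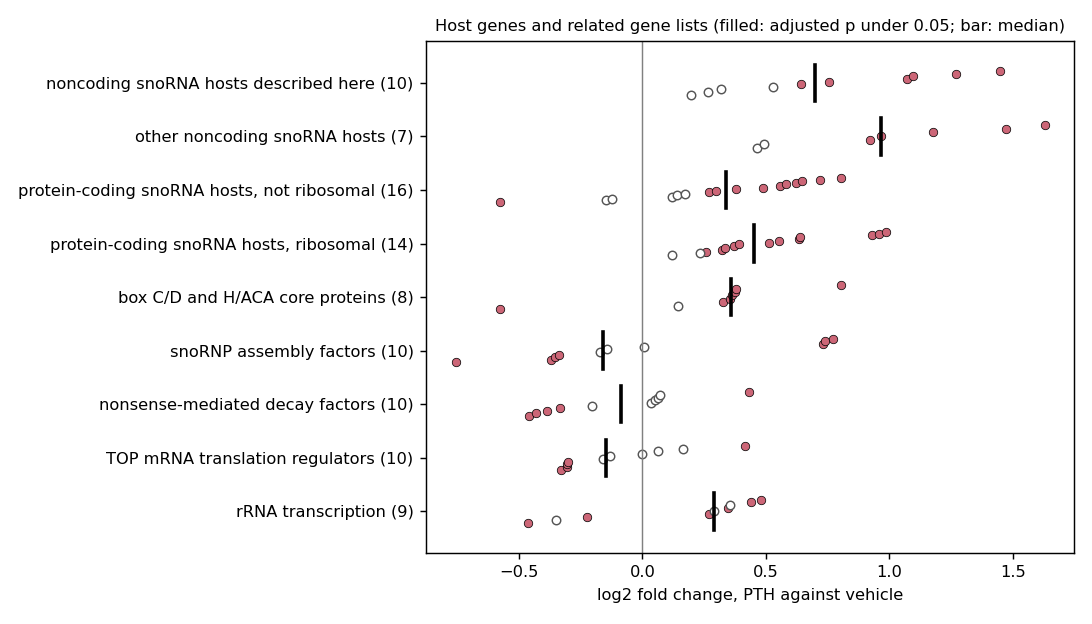
Log2 fold change, PTH against vehicle (horizontal axis), of each tested gene in the 10 hosts and in 8 related lists, with filled points for an adjusted p under 0.05, open points otherwise and a black bar at the list median. Noncoding hosts lie furthest to the right, with medians of 0.70 and 0.97, and assembly, decay and TOP regulator lists have medians just below 0.

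Of the 8 core proteins of snoRNA particles, 6 rose, 1 fell and 1 did not pass, with a median log2 fold change of 0.36. Nop56 rose most and Dkc1 was the one that fell, and both also belong to the list of protein-coding hosts. Among 10 factors that assemble the particles, 3 rose and 4 fell. Znhit3, of box C/D assembly, rose (log2 fold change 0.77, adjusted p = 0.0102), and Shq1, a chaperone of dyskerin, fell by 0.76 (log2, adjusted p = 0.0134).

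Nonsense-mediated decay factors, which act on spliced host exons, gave 1 higher and 4 lower of 10. Smg8 rose (log2 fold change 0.43, adjusted p = 0.00227) and Smg9, its partner in regulating the kinase Smg1, fell by 0.46 (log2, adjusted p = 0.00121). Regulators of TOP mRNA translation also gave 1 higher and 4 lower of 10, with Rheb, the activator of the mTORC1 kinase complex, at 0.41 (adjusted p = 1.76e-04) and Mlst8, the gene of a subunit of that complex, at -0.33 (adjusted p = 0.0103). For ribosomal RNA transcription, 4 of 9 genes rose and 2 fell. Ubtf, a factor of RNA polymerase I, rose (log2 fold change 0.48, adjusted p = 4.39e-05), and Taf1b, a subunit of its promoter selectivity factor, fell by 0.46 (log2, adjusted p = 0.00174).

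The snoRNAs themselves were hardly measured in these poly(A) libraries. Of 29 snoRNA entries that share an assembled locus with 8 of the hosts, 19 were listed at exactly 1 count in every library, 25 had at most 3 counts everywhere, and 1 passed the filter. The amount of mature snoRNA was therefore not measured here.

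By Pearson correlation with the mean log2 CPM of the 10 hosts over the 8 libraries, the most similar genes outside their loci were Srp19 (r = 0.997), 1110038B12Rik (r = 0.997), 4930579G18Rik (r = 0.996), Bcas2 (r = 0.996) and Alpk1 (r = 0.994). These 5 were picked from 14058 genes for following a mean that itself rose with PTH, so their own rise was fixed by that choice. Their log2 fold changes ran from 0.30 for Bcas2, a splicing factor, to 1.45 for 4930579G18Rik. Srp19, a protein of the signal recognition particle, was at 0.47. The libraries form 2 treatment groups and differ in total count, so the r describes likeness of pattern over these 8 libraries only.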

How the data were processed

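The authors isolated poly(A) RNA, sequenced it as read pairs on an Illumina NovaSeq, aligned the reads to GRCm38 with HISAT2, and made the deposited gene counts with StringTie and its companion script, which estimates counts from transcript coverage. Tool versions, annotation release, strand setting and the read length passed to that script are not given in the sources used here. The deposited values are unnormalised counts for 4 PTH and 4 vehicle libraries, grouped by the labels. 2 entries without a gene symbol were kept in the library sizes and went through the same filter as all others.

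PTH was compared with vehicle over the whole table in edgeR 4.0.16 (R 4.3.3) with TMM scaling, filterByExpr (minimum count 10, minimum total 15), the quasi-likelihood F-test and Benjamini-Hochberg adjustment over 16736 genes. An adjusted p under 0.05 was a call, with no minimum fold change. SE values are the fold change divided by the square root of F, and intervals are 95%. CPM used TMM library sizes, and log2 CPM a prior count of 2. Exact permutation tests were two-sided over 70 assignments. Alternatives used DESeq2 1.42.0, its size factors, no filter, a replicate block, each library left out, halved counts, summed symbols, a minimum log2 fold change of 1, thinning and a length offset. The fits were tested on simulated data. Sequences were searched with blastn 2.17.0.

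All 10 hosts were named. In each related list the genes with the largest rise and fall among those called at a mean of at least 1 CPM were named, as were the 5 genes most correlated with the hosts. Members and lists were chosen with earlier results of these data known. The main fit did not pair libraries by replicate number. Deviations from the group means correlated by -0.041 to 0.027 between libraries of the same number, so no shared pattern was visible. Such values cannot tell whether libraries of the same number had a common origin, which the sources do not state. Genes were placed with GENCODE M21, and promoters with RefSeq.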

Additional observations from a re-analysis of the deposited data

Results flagged for a closer look

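Among 20 groups of 4 libraries (10 host genes in 2 treatments), 5 had a library whose gap to its nearest neighbour exceeded Dixon's 95% critical share of the group's range. Chance gives about 1 in 20 for independent groups. These groups were not independent, since the 10 genes were measured in the same libraries. Their within-treatment correlations ran from 0.30 (Snhg5 and Snhg8) to 0.99 (Gas5 and Snhg1), so the 5 cannot be set against that rate. All 5 flagged groups were vehicle groups. Vehicle replicate 1 stood above the other 3 vehicle libraries for Gas5 (79.97 CPM), Snhg1 (22.4 CPM), Snhg8 (8.34 CPM) and Snhg18 (56.4 CPM). Vehicle replicate 2 stood above the others for Snhg5 (13.5 CPM). Vehicle replicate 1 was the highest vehicle library for 8 of the 10 hosts, against 27.9% of all tested genes. Without it all 6 called hosts were still called, and the median log2 fold change of the 10 hosts was 0.77.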

How the results depend on the processing

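The 6 calls were the same under DESeq2, its size factors, no filter, halved counts, summed symbols, thinning, the length offset and the replicate block, and no direction reversed. Without PTH replicate 1, 9 hosts were called, and over the fits that left out 1 library the log2 fold change ran from 0.35 to 0.72 for Snhg3, from 0.05 to 0.42 for Snhg4, from 0.10 to 0.44 for Snhg5 and from 0.10 to 0.32 for Snhg18. With a minimum log2 fold change of 1, 4 hosts were called, 1232 genes were higher and 650 lower, 3 further noncoding hosts were higher, and the other 7 lists had 0 called in either direction. Matching by the symbol itself, chosen after seeing the data, left 5 of 9 called. The protein-coding hosts other than ribosomal genes had 1 to 2 lower genes, with 2 without PTH replicate 1. The replicate block gave 1 lower gene of ribosomal RNA transcription and changed no host's call. The length offset gave log2 fold changes of 1.08 for Snhg15, 0.95 for Snhg6, 0.76 for Snhg8, 0.18 for Snhg5 and 0.11 for Snhg3, all lower, and 1.15 for Snhg1 and 0.70 for Gas5, both higher. It used the longest annotated transcript, for 97.0% of tested genes and not for Snhg4. That length was 2728 bases for Snhg1 and 2556 for Gas5, whose transcripts with the most exons have 605 and 502 bases. For Snhg15, Snhg8 and Snhg6 it was 675, 776 and 816 bases. An offset by the transcript with the most exons was not fitted. The causes of these differences were not tested. Snhg4 had the fewest counts, 67 to 127 per library.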

Other observations

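Outside the loci of the 10 hosts, 19 entries whose symbols begin Snora, Snord or Scarna passed the filter on low counts, of 130 in the table. By the edgeR test 12 of the 19 were higher with PTH and none was lower, also at an unadjusted p under 0.05 or by DESeq2. Of all tested genes 23.3% were higher and 22.5% lower by the same rule. The filter asks for a count near 10 in as many libraries as a group holds. Snord83b, Snord34 and Snord49a had at most 6, 6 and 8 counts in vehicle, and Snord33 had 4 to 10. Such entries passed only through the PTH libraries, so the direction of their calls was tied to the filter. The 12 are therefore not a count free of that choice. Snord83b had 4 to 6 counts in vehicle and 14 to 41 counts in PTH libraries (log2 fold change 2.44, SE 0.578, adjusted p = 0.00441). Snord33, in an intron of the ribosomal protein gene Rpl13a, had 4 to 10 counts in vehicle and 17 to 29 counts in PTH libraries (log2 fold change 2.12, SE 0.486, adjusted p = 0.00354). Snord69 had 13 to 20 counts in vehicle and 35 to 84 counts in PTH libraries (log2 fold change 2.08, SE 0.425, adjusted p = 0.00172). These 3 were chosen after their values were seen, as 3 entries with the largest log2 fold changes. Mature snoRNAs lack a poly(A) tail, and whether these counts come from them or from unspliced host transcripts was not tested. Of all 47706 entries, 197 were listed at exactly 1 count in every library, and 62 of these were annotated as snoRNAs.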
